A study of Mus musculus with 6 samples.

Results

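The genes described here are 10 genes of zinc handling: the metallothioneins Mt1, Mt2 and Mt3, the ZIP transporters Slc39a14, Slc39a8, Slc39a6 and Slc39a10, and the ZnT transporters Slc30a1, Slc30a5 and Slc30a7. They were chosen by symbol, and each symbol matched 1 of the 46603 gene identifiers in the counts. Poly(A) RNA was sequenced from enteric glial cells (EGCs), the supporting cells of the gut's nervous system, which had been grown as neurospheres for about a week from the whole gut of E14.5 C57BL/6J embryos and then plated in medium with serum until confluent. The control group held 3 libraries of untreated cells, and the LPS group held 3 libraries of cells exposed to lipopolysaccharide, a component of the outer membrane of Gram-negative bacteria, at 100 ng/ml for 12 h. Both groups were wild type and carried no transgene. The labels did not say whether replicates were separate cultures, so p-values measure the spread between these libraries, part of which may be technical.

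Zinc is held in cells by metallothioneins, small cysteine-rich proteins that bind zinc and copper. ZIP transporters (Slc39a genes) bring zinc into the cytosol from outside or from vesicles, and ZnT transporters (Slc30a genes) move it out of the cytosol. When cytosolic zinc rises, the transcription factor MTF1, encoded by Mtf1, binds metal response elements in DNA and switches on metallothionein genes and Slc30a1. In liver, inflammation is known to raise metallothioneins and Slc39a14 through interleukin-6, and glucocorticoids also raise metallothioneins.

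Since MTF1 is known to act through short elements near the start of its target genes, the promoters of the genes were read from RefSeq (build GRCm38.p6), 300 bases each, with 250 before and 50 from the first transcribed base on. Of the 10 genes, 8 had an entry, Slc39a14 and Slc39a6 being the others, and Slc39a8 and Slc39a10 each had 2 promoters. The core of the metal response element was searched as TGCACNC or TGCGCNC (N, any base) on both strands. The 4 windows below were chosen to show how the metallothioneins differ from each other and from the exporter Slc30a1. They are printed 5′ to 3′ on the strand of the gene, with matches to the core in capitals, and a match on the other strand appears as its reverse complement. Mt1 is shown from chr8:94178839-94179138 (plus strand), Mt2 from chr8:94172368-94172667 (plus), Mt3 from chr8:94152357-94152656 (plus) and Slc30a1 from chr1:191906531-191906830 (plus).
Mt1: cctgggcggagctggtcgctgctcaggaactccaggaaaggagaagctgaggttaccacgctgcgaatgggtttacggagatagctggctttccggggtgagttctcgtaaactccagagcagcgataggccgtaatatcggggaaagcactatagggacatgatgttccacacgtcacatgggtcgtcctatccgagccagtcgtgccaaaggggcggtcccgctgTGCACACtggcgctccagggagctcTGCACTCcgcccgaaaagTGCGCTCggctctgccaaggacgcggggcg
Mt2: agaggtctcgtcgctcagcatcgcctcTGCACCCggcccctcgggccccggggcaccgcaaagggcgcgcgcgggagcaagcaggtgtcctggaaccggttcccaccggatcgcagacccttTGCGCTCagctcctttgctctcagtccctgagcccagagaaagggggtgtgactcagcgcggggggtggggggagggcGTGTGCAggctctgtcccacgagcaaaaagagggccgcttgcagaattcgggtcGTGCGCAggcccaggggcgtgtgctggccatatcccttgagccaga
Mt3: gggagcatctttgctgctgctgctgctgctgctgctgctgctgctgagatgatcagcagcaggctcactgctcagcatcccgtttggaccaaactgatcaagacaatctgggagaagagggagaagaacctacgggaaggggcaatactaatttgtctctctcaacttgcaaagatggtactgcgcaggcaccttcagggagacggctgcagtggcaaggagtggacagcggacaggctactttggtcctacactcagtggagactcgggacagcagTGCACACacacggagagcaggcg
Slc30a1: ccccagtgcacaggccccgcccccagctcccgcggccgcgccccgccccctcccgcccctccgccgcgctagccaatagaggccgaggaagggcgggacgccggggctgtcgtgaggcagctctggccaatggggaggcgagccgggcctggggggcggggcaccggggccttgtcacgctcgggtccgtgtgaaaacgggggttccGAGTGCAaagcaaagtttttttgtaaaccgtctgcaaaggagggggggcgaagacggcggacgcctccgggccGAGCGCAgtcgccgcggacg

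The Mt1 window held 3 matches, at bases -23 to -17, 2 to 8 and 20 to 26, counted from the first transcribed base as 0. Mt2 held 4, at bases -223 to -217, -128 to -122, -50 to -44 and 4 to 10, the last 2 of them on the other strand. Slc30a1 held 2, at bases -43 to -37 and 30 to 36, both on the other strand, while Mt3 held 1, at bases 27 to 33. Among 32851 mouse promoters of the same length, 25.7% held at least 1 match, 7.11% at least 2, 1.97% at least 3 and 0.517% at least 4. Slc30a5 and the second promoter of Slc39a8 held 1 match each, and the first promoter of Slc39a8, both promoters of Slc39a10 and the promoter of Slc30a7 held none. Of the other motifs searched on both strands, the STAT motif TTCNNNGAA stood in the second promoter of Slc39a10 alone (8.3% of all promoters hold it). The antioxidant element core TGACNNNGC stood once each in Mt2, Slc30a1, Slc30a5 and the first promoter of Slc39a8 (12.4% of all promoters), and no match overlapped one of another motif. These matches describe letters in a window, not bound sites. Counts and positions rest on the RefSeq starts, which differ from those of the GENCODE M21 annotation for some genes. There Mt2 starts at base 94172664, so all 4 of its matches lie before that start. The second promoter of Slc39a10 (chr1:46925727-46926026) lies outside its gene model (chr1:46807544-46892852). Bases outside the windows were not searched, so the counts compare windows and not whole promoters.

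**Figure D1:**
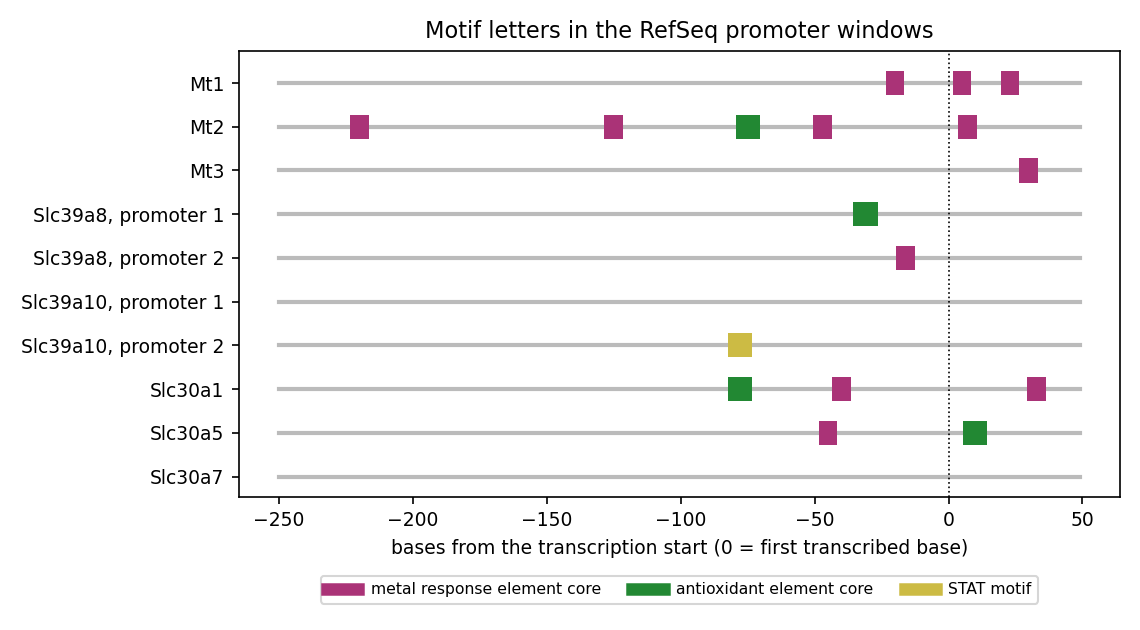
Positions of motif letters in the 10 RefSeq promoter windows of the 8 genes that had one. The x axis gives bases from the first transcribed base (0, dotted line), each grey line is a window of 300 bases, and coloured boxes are matches on either strand; Mt2 has 4 and Mt1 has 3 matches to the metal response element core, against 1 in Mt3.

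Total counts ranged from 18775316 to 23664312 per library, and 3 counts, taken as the detection floor, corresponded to 0.124 to 0.167 CPM (counts scaled to a common library size after correction for composition). Glial markers were present, with Sox10 at 101, 89.5 and 73.8 CPM in control replicates 1, 2 and 3 and 76.8, 78.2 and 75.9 CPM in LPS replicates 1, 2 and 3. The 12 glial markers summed to 827 to 1117 CPM in control and 849.6 to 869 CPM in LPS. These sums were below those of the macrophage and mesenchymal markers in every library. Such sums do not give shares of cells. Of the 12 glial markers 11 were tested, and 1, Fabp7, was called higher (log2 fold change 1.29, edgeR adjusted p = 0.0122). The 2 called lower were S100b (log2 fold change -1.91, edgeR adjusted p = 0.0238) and Cdh19 (-0.66, 0.0457). Over all genes, 9.09% were called higher and 6.71% lower. Without control replicate 2 no glial marker was called, where 2.44% of all genes were called higher and 0.72% lower. Markers of other cells were also present: 8 mesenchymal markers summed to between 15149 and 16193 CPM per library (2 called higher and 1 lower), and 12 macrophage markers to 4362, 5680 and 13349 CPM in control and 4066, 5274 and 20089 CPM in LPS. All 12 macrophage markers were tested and 1, Adgre1, was called higher, where 9.09% of all genes were. With the replicate number as a block 3 were called higher and 4 lower, where 15.4% and 14.9% of all genes were. Both libraries numbered 3 held more macrophage marker RNA than the other 4, and neuron markers were lower in them (274 and 291 CPM against 439.6 to 486 CPM). Smooth muscle markers summed to 2290 to 2523 CPM in control and 640.4 to 911 CPM in LPS, with 7 of 7 tested members called lower. Without control replicate 2 it was 4, and without LPS replicate 3 it was 6, where 0.72% and 9.13% of all genes were called lower. Mesothelial markers summed to 63.2 to 95.4 CPM in control and 34.6 to 56.4 CPM in LPS, with 1 of 5 members called lower, or 4 with the block. Without control replicate 2 no mesothelial marker was called. In such mixed cultures, fewer cells of a type and less RNA per cell cannot be told apart. For members, log2 fold changes without both libraries numbered 3 are given where they bear on a result, from a fit that called 22.6% of all genes higher and 20.4% lower, 5 of the members higher and 2 lower.

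Exposure to LPS went with higher RNA of the metallothioneins Mt1 and Mt2, the importer Slc39a14 and the vesicular transporter Slc30a7, and with lower RNA of the importer Slc39a10. Of the 10 genes, 9 passed the filter on low counts and were tested with the edgeR quasi-likelihood test. Adjusted over all 15226 genes, 4 were called higher, 1 lower and 4 were not called at an adjusted p under 0.05. Over all genes tested, 9.09% were called higher and 6.71% lower. CPM ranges of the groups did not overlap for 5 of the 9 genes, against 38.7% of all genes tested. The median log2 fold change was 0.20 over these 9 genes and -0.02 over all genes. Same-numbered control and LPS libraries deviated together across genes, and with the replicate number as a block 3 of the 9 were called higher and 2 lower, where 15.4% and 14.9% of all genes were called. With control replicate 2 left out, Slc39a14 was the 1 member still called, where 2.44% of all genes were called higher and 0.72% lower.

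**Figure D2:**
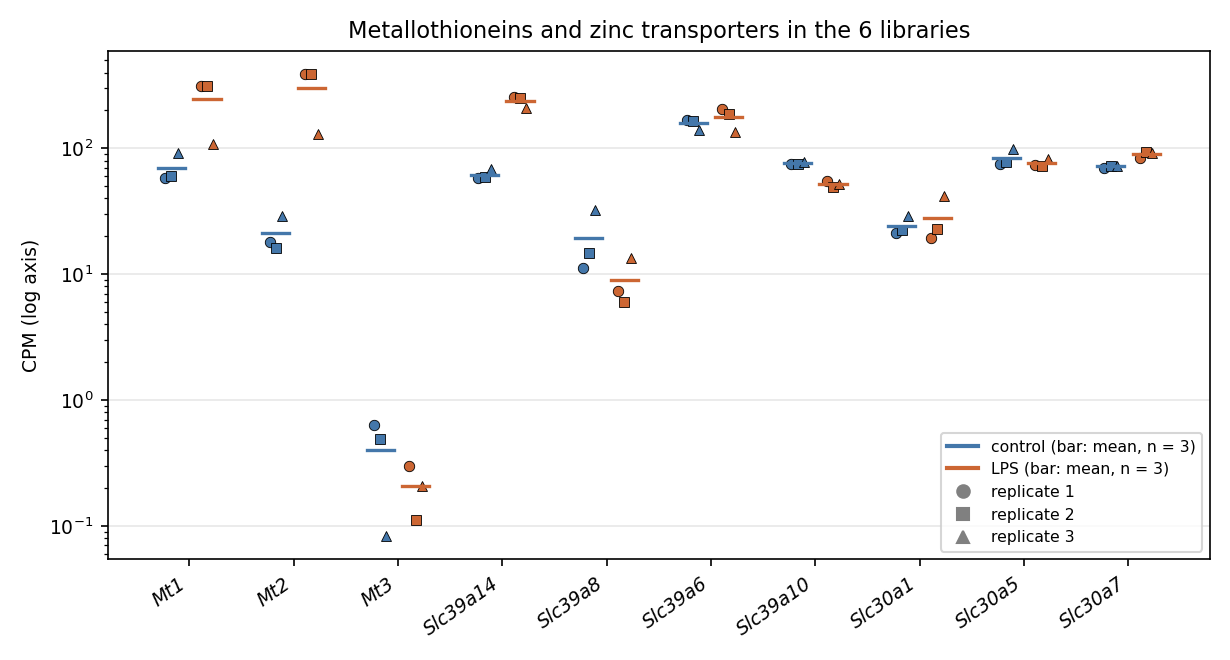
CPM of the 10 genes in each of the 6 libraries on a log axis, with points shaped by replicate number, colours for the groups and bars for group means (n = 3). Mt2 sits at 16.2 to 29.1 CPM in control and 129 to 390.4 CPM in LPS, and LPS replicate 3 is the lowest LPS library for Mt1, Mt2 and Slc39a14.

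Mt2 showed the largest change among the 9 tested genes. Its level was 17.9, 16.2 and 29.1 CPM in control replicates 1, 2 and 3 and 386, 390.4 and 129 CPM in the corresponding LPS replicates. All 3 LPS libraries were above all control libraries, LPS replicates 1 and 2 were nearly equal, and LPS replicate 3 lay well below them. The mean went from 21.1 ± 6.96 to 302 ± 149 CPM (SD, n = 3), a 14.3-fold difference, and the log2 fold change was 3.84 (SE 0.52, edgeR adjusted p = 0.00866). The call was lost without control replicate 1 (log2 fold change 3.74, edgeR adjusted p = 0.0535) or control replicate 2 (3.69, 0.0595), and over all alternatives (other scalings, filters and tests, the block, and each library left out) the adjusted p lay between 4.06e-14 and 0.0595. Without both libraries numbered 3 the log2 fold change was 4.53 (SE 0.07, edgeR adjusted p = 3.83e-07).

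Mt1, the other metallothionein found in most tissues, was at 58.3, 60.6 and 91.2 CPM in control and 311, 315 and 109 CPM in LPS. The lowest LPS library, replicate 3, was close to the highest control library, which was also replicate 3, and the groups did not overlap. The mean went from 70.0 ± 18.4 to 245 ± 117 CPM (SD, n = 3), 3.5-fold, with a log2 fold change of 1.81 (SE 0.44, edgeR adjusted p = 0.0443). This call was near the threshold: it was lost with the replicate block (log2 fold change 1.71, adjusted p = 0.0648), with limma-voom (0.0602), with upper-quartile scaling (0.0503), and on leaving out any control library (0.147, 0.165 and 0.0618 for replicates 1, 2 and 3) or the LPS libraries 1 (0.126) and 2 (0.141). Over the alternatives the adjusted p lay between 0.000466 and 0.165. Without LPS replicate 3 the log2 fold change was 2.16 (edgeR adjusted p = 0.00328), and without both libraries numbered 3 it was 2.42 (SE 0.06, edgeR adjusted p = 1.03e-06).

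Compared within replicate numbers, the LPS library held 5.33, 5.2 and 1.2 times the Mt1 CPM of its control library for numbers 1, 2 and 3. For Mt2 these ratios were 21.5, 24 and 4.45. All 3 ratios were above 1 for both genes, and number 3 gave the smallest. The libraries numbered 3 were also those with the most macrophage marker RNA in each group, and the part of that difference in the metallothionein values was not tested.

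Mt3, which is known mainly from the brain, was near the detection floor. It had 15, 11 and 2 counts in control and 6, 2 and 4 counts in LPS, at most 0.636 CPM. The groups overlapped, and the gene did not pass the filter on low counts. In a fit of all genes with a count its log2 fold change was -0.94 (SE 0.76, edgeR adjusted p = 0.543), so a difference was not detectable at this depth.

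Neither the sum nor the proportion of the 2 abundant metallothioneins overlapped between the groups. Mt1 and Mt2 together made up 76.2, 76.8 and 120.2 CPM in control and 696, 705 and 239 CPM in LPS, 6-fold more on average (91.1 ± 25.2 against 547 ± 267 CPM, SD, n = 3). LPS replicate 3 lowers the second mean. For each Mt1 count there were 0.307, 0.268 and 0.319 Mt2 counts in control and 1.24, 1.24 and 1.18 in LPS. Although the summed level of LPS replicate 3 was far below that of the other LPS libraries, its proportion lay beside theirs. On the log2 scale the ratio was -1.75 ± 0.13 in control and 0.29 ± 0.04 in LPS (SD, n = 3), a difference of 2.04, or 4.11-fold. The exact permutation test over libraries, two-sided, gave p = 0.1, the smallest value that 3 against 3 libraries allow. Because the transcripts differ in length, the ratio compares groups and not the levels of the 2 genes. Of the 31-base words in the annotated transcripts of Mt1, 0% occurred in another gene, and of those of Mt2 0.524% did, none of them in Mt1.

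**Figure D3:**
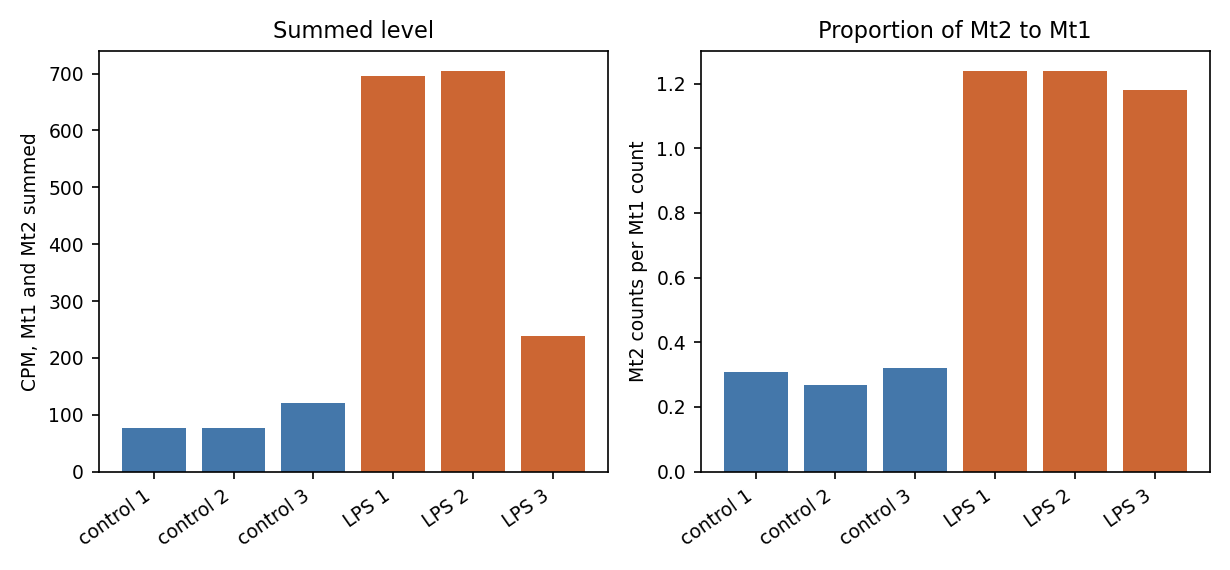
Mt1 and Mt2 in each library: on the left the summed CPM of both genes, on the right the number of Mt2 counts per Mt1 count, both axes starting at 0. The sum in LPS replicate 3 is 239 CPM, and the other LPS libraries reach 696 and 705 CPM, whereas the ratio is 1.18 to 1.24 in all 3 and 0.268 to 0.319 in control.

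The metallothioneins lie together on chromosome 8 of GRCm38, all on the plus strand in the GENCODE M21 annotation: Mt3 at chr8:94152607-94154146, Mt2 at chr8:94172664-94173568 and Mt1 at chr8:94179082-94180327. Exons of Mt2 overlap those of Gm45774 on the opposite strand over 432 bases. The strand setting used in counting was not given in the sources used here, so reads from the opposite strand may be included.

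Of the importers, Slc39a14 (ZIP14, which carries zinc and also iron and manganese across the plasma membrane) rose in LPS. It was at 57.6, 58.7 and 68.6 CPM in control and 256, 253 and 209 CPM in LPS. The LPS libraries lay close to each other and far above every control library, with LPS replicate 3 the lowest. The mean went from 61.7 ± 6.07 to 239 ± 26.4 CPM (SD, n = 3), 3.88-fold, and the log2 fold change was 1.96 (SE 0.12, edgeR adjusted p = 0.000683). It was called under every alternative, with log2 fold changes of 1.91 to 2.06 when single libraries were left out and adjusted p-values between 2.59e-37 and 0.0111, and at 2.15 without both libraries numbered 3. Within replicate numbers 1, 2 and 3 the LPS library held 4.44, 4.32 and 3.04 times the control CPM. The gene lies at chr14:70303469-70351425 on the minus strand.

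Slc39a10 (ZIP10, a plasma membrane importer) was the one tested member called lower. It was at 75.4, 74.8 and 77.7 CPM in control and 54.8, 49.1 and 52.1 CPM in LPS. Each group spanned a narrow range and the ranges were well apart. The mean fell from 76.0 ± 1.5 to 52.0 ± 2.83 CPM (SD, n = 3), a log2 fold change of -0.55 (SE 0.07, edgeR adjusted p = 0.00746). The call was lost without control replicate 2 (log2 fold change -0.55, edgeR adjusted p = 0.0532), the highest adjusted p of the alternatives, whose lowest was 1.60e-08. The LPS library held 0.726, 0.656 and 0.671 times the control CPM within numbers 1, 2 and 3. The gene lies at chr1:46807544-46892852 on the minus strand, and 1.62% of its 31-base words also occur in other genes, most of them in Gm6801.

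Slc39a6 (ZIP6), the closest relative of ZIP10 and its partner in a joint complex, was not called. It was at 169, 166 and 141 CPM in control and 206, 188 and 134 CPM in LPS. LPS replicates 1 and 2 were above all control libraries and LPS replicate 3 was below them, so that the groups overlapped. The log2 fold change was 0.15 (SE 0.18, edgeR adjusted p = 0.612), and with scaling to library size alone it was -0.0018. Without both libraries numbered 3 the gene was called higher, at 0.26 (SE 0.06, edgeR adjusted p = 0.0155), in the fit that called 22.6% of all genes higher. The gene lies on chromosome 18.

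Slc39a8 (ZIP8, an importer of zinc and manganese) was at 11.1, 14.6 and 32.1 CPM in control and 7.41, 6.02 and 13.5 CPM in LPS. Replicate 3 was the highest library of each group, and LPS replicate 3 lay between control replicates 1 and 2. The log2 fold change was -1.10 (SE 0.50, edgeR adjusted p = 0.192), which did not pass the test. With the replicate block it was -1.04 (SE 0.17) and was called lower (edgeR adjusted p = 0.0175), and without both libraries numbered 3 it was -0.91 (edgeR adjusted p = 0.00823), in the fit that called 20.4% of all genes lower. Without control replicate 3 alone it was -0.50 (edgeR adjusted p = 0.417). Within numbers 1, 2 and 3 the LPS library held 0.668, 0.413 and 0.421 times the control CPM, below 1 each time. In control the 12 macrophage markers followed the same order as Slc39a8, with 4362, 5680 and 13349 CPM, and in LPS both were highest in replicate 3; the part of macrophage RNA in these values was not tested. The gene lies at chr3:135825279-135888572 on the plus strand.

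**Figure D4:**
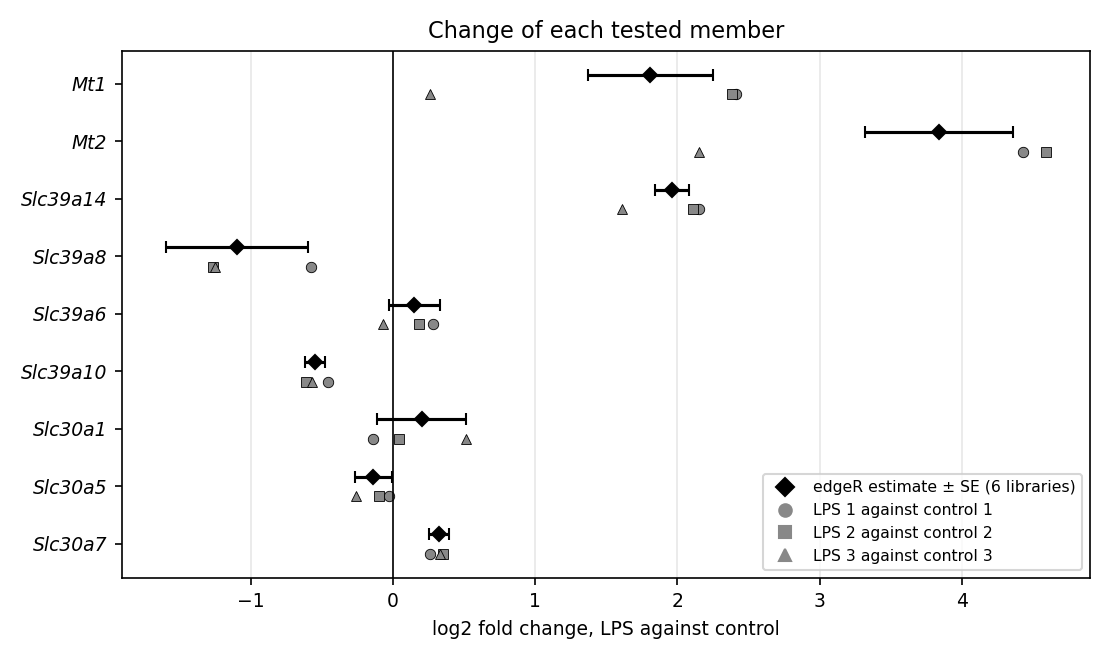
Log2 fold change of LPS against control for the 9 tested genes. Diamonds with bars are the edgeR estimate ± SE over 6 libraries, and grey points are the log2 ratio of CPM within each replicate number; number 3 gives the smallest ratio of Mt1 (0.26), Mt2 (2.15) and Slc39a14 (1.61), while the 3 ratios of Slc39a10 lie between -0.61 and -0.46.

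Among the ZnT transporters, which clear zinc from the cytosol, 1 of 3 was called, where 9.09% of all genes were called higher and 6.71% lower. Slc30a7 (ZnT7, which loads the Golgi with zinc) was at 70.4, 72.9 and 72.8 CPM in control and 84.5, 93.1 and 91.3 CPM in LPS. Every LPS library was above every control library. The mean went from 72.0 ± 1.41 to 89.6 ± 4.53 CPM (SD, n = 3), a log2 fold change of 0.32 (SE 0.07, edgeR adjusted p = 0.0324). The estimate moved with the scaling: the median over all genes tested was -0.02 with the main scaling, but -0.124 when scaled by upper quartiles and -0.175 when scaled by library size alone, where Slc30a7 was at 0.21 (edgeR adjusted p = 0.0779) and 0.16 (0.137). The call was also lost with no filter on low counts (0.0819) and on leaving out any control library (0.124, 0.133 and 0.0555 for replicates 1, 2 and 3) or the LPS libraries 1 (0.0663) and 2 (0.125). Over the alternatives the adjusted p lay between 0.000575 and 0.137, and without both libraries numbered 3 the log2 fold change was 0.33 (edgeR adjusted p = 0.00877). The gene lies at chr3:115938973-116007406 on the minus strand and its exons overlap Gm43106 (637 bases) and Gm6649 (1165 bases) on the other strand.

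Slc30a1 (ZnT1, the exporter of the plasma membrane and, like the metallothioneins, a known target of MTF1) was not called. It was at 21.4, 22.4 and 29.1 CPM in control and 19.5, 23.0 and 41.5 CPM in LPS. The groups overlapped, and replicate 3 was the highest library of both. The log2 fold change was 0.20 (SE 0.31, edgeR adjusted p = 0.702), and it changed sign without LPS replicate 3 (-0.20, adjusted p = 0.456) and without both libraries numbered 3 (-0.02, adjusted p = 0.869). The high value in LPS replicate 3 stood beside 20089 CPM of macrophage markers in that library, and their part in it was not tested. Slc30a1 lies at chr1:191906767-191913247 on the plus strand and overlaps 1700034H15Rik on the other strand over 468 bases, a gene with at most 15 counts in any library.

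Slc30a5 (ZnT5, which works in the early secretory pathway) was at 75.0, 77.9 and 98.4 CPM in control and 73.5, 72.7 and 82.0 CPM in LPS. Replicate 3 was again the highest library of each group, and the groups overlapped. The log2 fold change was -0.14 (SE 0.13, edgeR adjusted p = 0.497), without control replicate 3 it was 0.01 (adjusted p = 0.958), and without both libraries numbered 3 it was -0.04 (adjusted p = 0.595). The gene lies at chr13:100802648-100833427 on the minus strand, and 3.12% of its 31-base words occur in other genes.

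Levels of different genes were compared as CPM per kilobase of exon, over the union of annotated exons. In control, Mt1 came first at 56.2 ± 14.7, followed by Slc39a6 at 38.9 ± 3.83 and Mt2 at 35.8 ± 11.8 CPM per kilobase (SD, n = 3). The values of Mt2 in single libraries overlapped those of both Mt1 and Slc39a6. Slc39a10 (12.5 ± 0.245) and Slc30a5 (11.5 ± 1.75 CPM per kilobase) formed an overlapping pair below them. Slc30a7 (6.48 ± 0.127), Slc39a14 (5.84 ± 0.576), Slc30a1 (4.63 ± 0.797) and Slc39a8 (2.51 ± 1.47 CPM per kilobase) came next, each overlapping its neighbour in this order, and Mt3 was last at 0.377 ± 0.268.

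In LPS, Mt2 was first at 513 ± 254 CPM per kilobase (SD, n = 3), above 99.6% of 15182 genes, against 92% in control. Mt1 was second at 197 ± 94.3 CPM per kilobase, and the ranges of the 2 genes overlapped across libraries although Mt2 was the higher of the 2 within each LPS library. Slc39a14 moved from rank 7 to rank 4 among the 10 genes, at 22.7 ± 2.5 CPM per kilobase, behind Slc39a6 at 43.2 ± 9.25 and apart from both its neighbours. Slc30a5 (10.4 ± 0.704), Slc39a10 (8.53 ± 0.465), Slc30a7 (8.06 ± 0.407) and Slc30a1 (5.33 ± 2.25 CPM per kilobase) followed; Slc39a10 overlapped Slc30a7, which overlapped Slc30a1. Slc39a8 at 1.17 ± 0.519 and Mt3 at 0.193 ± 0.0868 CPM per kilobase stayed last. These levels depend on the length used. The exon union of Mt1 is 1246 bases because some annotated transcripts keep their introns, and with its principal transcript of 549 bases the control level was 128 CPM per kilobase, while Mt2 stayed ahead of Mt1 in LPS (591 against 446). With the longest transcript of each gene, Slc39a14 reached 46.8 CPM per kilobase in LPS, level with Slc39a6 at 45.3, and Slc30a5 in control (20.9) lay above Slc39a10 (13.8) without overlap, so the order among these genes depends on the length used.

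**Figure D5:**
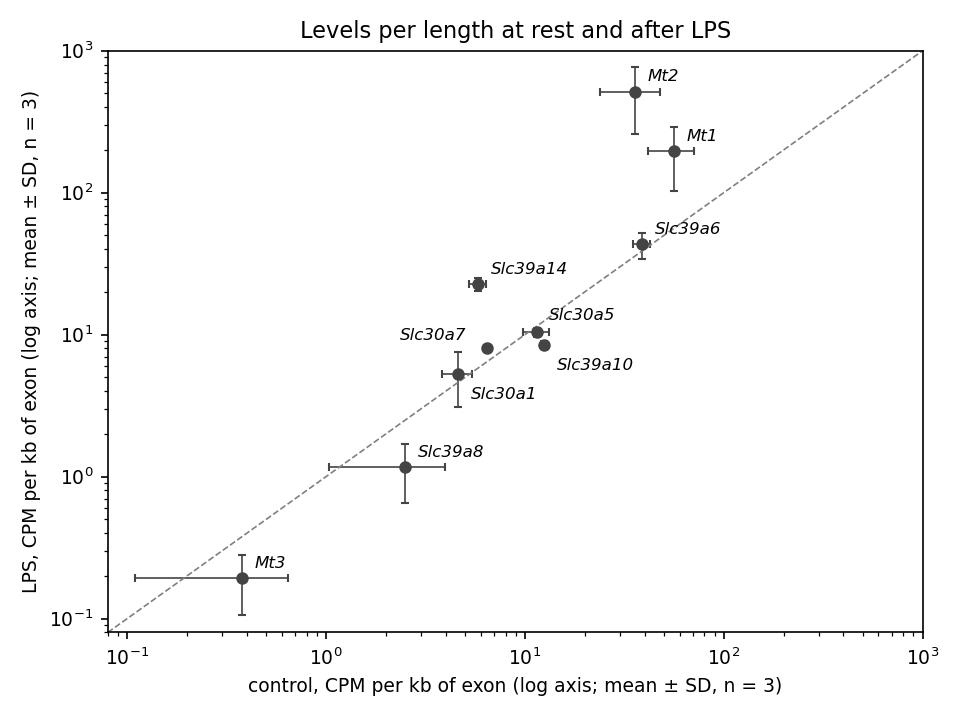
Level of each of the 10 genes in CPM per kilobase of exon, control on the x axis and LPS on the y axis, both log axes, as mean ± SD over 3 libraries; the dashed line marks equal levels. Mt2 (35.8 and 513), Mt1 (56.2 and 197) and Slc39a14 (5.84 and 22.7) lie above the line, and Slc39a10 (12.5 and 8.53) lies below it.

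A further 18 genes complete the metallothionein, ZIP and ZnT families of the list. Of these, 11 passed the filter, 3 were called higher, 1 lower and 7 were not called (9.09% and 6.71% of all genes were called), with a median log2 fold change of 0.16 against -0.02 over all genes. The other 7 were not tested, and 5 of them had at most 3 counts in every library. When replicate number was blocked, 4 rose and 1 fell, where 15.4% and 14.9% of all genes did.

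Slc39a4 (ZIP4, the importer by which the gut takes up dietary zinc) was at 0.593, 0.575 and 0.207 CPM in control and 9.69, 10.5 and 6.12 CPM in LPS. It was low at rest, at 14, 13 and 5 counts, and higher in every LPS library, with a log2 fold change of 4.25 (SE 0.45, edgeR adjusted p = 0.00381). Slc39a7 (ZIP7, which releases zinc from the endoplasmic reticulum) was at 21.8, 20.9 and 21.2 CPM in control and 27.7, 27.4 and 28.4 CPM in LPS, a log2 fold change of 0.38 (SE 0.07, edgeR adjusted p = 0.0244). Slc39a13 (ZIP13, which serves the secretory pathway of connective tissue cells) was at 68.4, 56.6 and 45.9 CPM in control and 108, 102 and 82.5 CPM in LPS, a log2 fold change of 0.78 (SE 0.18, edgeR adjusted p = 0.0376). All 3 had groups that did not overlap, and the calls of Slc39a7 and Slc39a13, but not that of Slc39a4, were lost with library size alone (adjusted p = 0.0946 and 0.0789) and with upper-quartile scaling (0.0598 and 0.0699), and that of Slc39a7 with no filter (0.0697). Leaving out control library 1 or 2 or LPS library 1 or 2 also ended the call of Slc39a7 (adjusted p up to 0.118), and leaving out any library except LPS replicate 3 that of Slc39a13 (up to 0.138). Slc39a12 (ZIP12, known from the brain) was the gene called lower, with 14, 27 and 34 counts in control and 0, 1 and 4 in LPS (edgeR adjusted p = 0.0391), levels so near the floor that no fold is given. Leaving out any single library other than LPS replicate 3 ended the call of Slc39a12.

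The list of regulators held 10 genes, all tested, of which 3 were called higher, against 9.09% of all genes. With the block it was 4 higher and 1 lower, against 15.4% and 14.9%. Mtf1, the zinc sensor, was at 25.3, 27.0 and 24.0 CPM in control and 32.5, 33.3 and 35.3 CPM in LPS. All LPS libraries were above all control libraries, with a log2 fold change of 0.41 (SE 0.09, edgeR adjusted p = 0.0308), but it did not pass when scaled by library size alone (0.25, adjusted p = 0.101) or by upper quartiles (0.30, 0.0644), without a filter on low counts (0.39, 0.068), or on leaving out any library except LPS replicate 3 (highest adjusted p 0.108). Of the interleukin-6 pathway, the ligand Il6 was at 6.19, 5.49 and 7.44 CPM in control and 197, 308 and 158 CPM in LPS (log2 fold change 5.11, SE 0.31, edgeR adjusted p = 0.000656). Socs3, its feedback inhibitor, was at 27.1, 25.6 and 31.4 CPM in control and 129.9, 136 and 192 CPM in LPS (2.45, SE 0.18, edgeR adjusted p = 0.00136).

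LPS replicate 3 was the lowest LPS library for Il6, as for Mt1 and Mt2, and the highest for Socs3. The transcription factor Stat3 was at 257, 256 and 295 CPM in control and 328, 346 and 348 CPM in LPS (log2 fold change 0.34, SE 0.09, edgeR adjusted p = 0.0506), and it was called higher with the block (adjusted p = 0.0229), DESeq2 (0.00476), limma-voom (0.0473), at least 10 counts in every library (0.0484) and without control replicate 3 (0.0297). The receptor chains were not called, with log2 fold changes of -0.23 for Il6ra (edgeR adjusted p = 0.461) and 0.28 for Il6st (0.458), although Il6st, at 498, 485 and 278 CPM in LPS, was called higher without LPS replicate 3 (0.50, edgeR adjusted p = 0.0121). Nor were the glucocorticoid receptor Nr3c1 (0.10, edgeR adjusted p = 0.577), the oxidative stress factor Nfe2l2 (0.32, 0.175) and Fkbp5, a glucocorticoid-induced gene (-0.18, 0.558). Without control replicate 3 Nfe2l2 was called higher (0.50, edgeR adjusted p = 0.0187). Tsc22d3, which glucocorticoids also induce, was at 38.8, 37.0 and 48.3 CPM in control and 16.9, 16.5 and 35.7 CPM in LPS. Its groups did not overlap, the log2 fold change was -0.84 (SE 0.33, edgeR adjusted p = 0.145), and it was called lower with the block (-0.92, edgeR adjusted p = 0.0246) and without LPS replicate 3 (-1.31, 0.00459).

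S100a8 and S100a9 encode the subunits of calprotectin, a protein complex that withholds zinc from microbes. S100a8 had 3, 3 and 20 counts in control and 302, 243 and 77 counts in LPS. Both low control libraries were at the floor, and LPS replicate 3 was the lowest LPS library, at 4.03 CPM where the others had 14.9 and 13.5 CPM. The gene was called higher (log2 fold change 4.87, SE 0.89, edgeR adjusted p = 0.0205), a call lost on leaving out control library 1 or 2 or LPS library 1 or 2 (adjusted p up to 0.0957). Without control replicate 3 the log2 fold change was 6.33, and with both remaining control libraries at the floor its size is inexact. S100a9 had 1 count in LPS replicate 1 and 0 in the other libraries.

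Copper, which metallothioneins also bind, is handled by a further list of 10 genes, all tested. Of these, 1 was called higher and the others were not called, where 9.09% of all genes were called higher and 6.71% lower. Slc31a2 (CTR2, a copper transporter of endosomes and lysosomes) was at 34.6, 37.7 and 47.3 CPM in control and 103, 128 and 243 CPM in LPS. It was higher in each LPS library, and highest in replicate 3, where macrophage markers were also highest and their part was not tested. The log2 fold change was 1.99 (SE 0.35, edgeR adjusted p = 0.0186), and the call was lost on leaving out the control libraries 1 (adjusted p = 0.0842) and 2 (0.0954) or the LPS library 2 (0.0574), and without LPS replicate 3 the log2 fold change was 1.53. With the block, 3 genes were called higher, where 15.4% of all genes were. The block added Slc31a1, the copper importer of the plasma membrane (log2 fold change 0.76, edgeR adjusted p = 0.0376), and Atp7b, a copper pump (4.12, 0.0125). Atp7b was at 0.424, 0.708 and 0.207 CPM in control and 9.88, 17.9 and 0.523 CPM in LPS, so LPS replicate 3 lay within the control range. Slc31a1 was at 84.9, 94.8 and 135 CPM in control and 123, 131 and 321 CPM in LPS, with overlapping groups and the highest value in LPS replicate 3, and without the block its log2 fold change was 0.87 (edgeR adjusted p = 0.216), or 0.28 to 1.11 with single libraries left out.

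For Mt1, Mt2 and Slc39a14 the genes with the most similar pattern over the 6 libraries were sought among 11458 genes with a mean of at least 5 CPM, by the root mean square difference of log2 CPM after subtracting the control mean. Plscr1 came nearest to Mt1 (difference 0.15), at 21.2, 20.2 and 31.2 CPM in control and 101, 103 and 47.8 CPM in LPS, and Twist2 was also among the 3 nearest (0.191). Lbp came nearest to Mt2 (0.282), at 12.9, 15 and 13.9 CPM in control and 239.5, 255 and 89.1 CPM in LPS, followed by Acpp (0.315) and C920025E04Rik (0.347). Like Mt1 and Mt2, Plscr1 and Lbp were lower in LPS replicate 3 than in LPS replicates 1 and 2. That likeness follows from choosing them by their pattern over these same libraries. Relb came nearest to Slc39a14 (0.0484), at 16.3, 16.4 and 20.1 CPM in control and 73.8, 72.9 and 64.1 CPM in LPS, followed by Bcl3 (0.0787) and Nfkb1 (0.0796). The 6 libraries share their depth and composition across all genes, so the likeness is a description.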

How the data were processed

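Poly(A) RNA-seq libraries of 3 control and 3 LPS samples were analysed. The authors deposited unnormalized read counts for each gene, 1 table per library. Per the labels and the submitters' processing notes, the authors trimmed and filtered reads and aligned them to GRCm38, and the notes name cutadapt 1.15, Bowtie2 2.3.3.1, STAR 2.5.2b, SAMtools 1.5 and featureCounts 1.5.3. Strand and multi-mapping settings were not given in the sources used here. Replicates were not pooled, and a table of the whole series that repeats these counts was not used.

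Genes were filtered with filterByExpr (minimum count 10, minimum total 15), scaled with TMM factors and compared with the quasi-likelihood F-test of edgeR 4.0.16 (R 4.3.3), two-sided, group as the single term, with Benjamini-Hochberg adjustment over all 15226 genes and a threshold of 0.05. Standard errors (SE) were derived from the fold change and F. The floor of 3 counts covers counting error only. DESeq2 1.42.0 and limma 3.58.1 (voom) were alternatives, with other scalings, other filters, the replicate block and each library left out. Scripts were tested on simulated data. Replicate numbers were taken as pairs because same-numbered control and LPS libraries deviated together across genes (r = 0.513, 0.334 and 0.613 for 1, 2 and 3). Libraries 1 and 2 were also alike across numbers (control 1 with LPS 2, r = 0.419; control 2 with LPS 1, r = 0.323), so the data set number 3 apart more than they separate 1 from 2, and the labels do not say what a number stands for.

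Lengths and coordinates come from GENCODE M21 and promoters from RefSeq. All 10 genes and every called gene of the lists are named, with all regulators and S100 genes. Some genes that entered the ranking by likeness and the marker sums are not reported here by name. The members, lists and motifs were chosen with earlier results of these data known, so no list was tested.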

Additional observations from a re-analysis of the deposited data

How the results depend on the processing

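Members called higher numbered 4, and 2 with upper-quartile factors, 5 with both libraries numbered 3 left out (22.6% of all genes) and between 1 and 4 with single libraries left out. They numbered 3 with library size alone (6.48% of all genes), limma-voom (8.21%), no filter (4.48%) and the replicate block (15.4%). Members called lower numbered 1, and 2 with the replicate block, 2 with both libraries numbered 3 left out (20.4% of all genes; chosen after seeing the data), and between 0 and 1 with single libraries left out. Other family genes called higher numbered 3, and 1 with library size alone, 1 with upper-quartile factors and between 1 and 4 with single libraries left out. They numbered 2 with no filter (4.48% of all genes) and with at least 10 counts in every library (8.71%), and 4 with DESeq2 (13.7%) and the block (15.4%). Other family genes called lower numbered 1, and 0 with at least 10 counts in every library (Slc39a12 was then not tested), 2 with library size alone and between 0 and 1 with single libraries left out. The replicate block also ended the call of Mt1 and made those of Slc39a8, Stat3, Tsc22d3, Slc39a1, Slc31a1 and Atp7b, and it changed no other call in the lists of members, other family genes, regulators, S100 and copper genes. Over all genes, calls numbered 1384 higher and 1022 lower, against 2343 and 2273 with the block, 986 and 2054 with library size alone, 1050 and 1589 with upper-quartile factors, and 379 and 112 without control replicate 2. As shares of all genes tested, calls ran from 2.44% to 12.6% higher and from 0.72% to 9.13% lower with single libraries left out, and were 6.9% and 10.4% with upper-quartile factors.

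Changes of sign were sought among the members, the called genes of the other lists and the tested regulators. Uncalled copper genes and the cell type markers were left out of this search. Values that changed sign were Slc39a6 (-0.0018 with library size alone), Slc30a1 (-0.02 without both libraries numbered 3, -0.20 to 0.41 with single libraries left out), Slc30a5 (-0.20 to 0.01 with single libraries left out), Fkbp5 (-0.30 to 0.02 likewise) and Nr3c1 (-0.05 with library size alone, -0.00052 with upper-quartile factors). None was called under the setting that changed its sign, and the causes were not tested. Of the members' log2 fold changes under alternatives, 109 kept direction and side of the threshold, 19 lost the call, 3 gained one and 4 changed sign; of those of the called genes of the other lists and the tested regulators, 175, 34, 9 and 3 did. The difference in the Mt2 to Mt1 ratio stayed between 1.96 and 2.09 with single libraries left out; with the replicate block it is 2.04 by arithmetic. At this depth a difference was not detectable for genes at a few counts in both groups, such as Mt3 and S100a9.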
